A study of Homo sapiens with 10 samples.

Results

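The comparison described here is the FLAG-PUS7 pull-down in H9, a human embryonic stem cell line, set against the same pull-down from PUS7 knockout H9 cells. It comprises 4 of the 10 iCLIP libraries of the series, taken by cell line and genotype as the labels give them. In 2 libraries the cells were PUS7 knockout cells that carried FLAG-tagged PUS7, and in the other 2 they were PUS7 knockout cells without it, so that the deletion is common to both groups. The mock pull-down therefore holds RNA that reaches the beads without a tagged protein. All 4 libraries used anti-FLAG beads and cells of passage 40 to 45. The sources used here do not give the promoter or level of the tagged protein, or whether the knockout line is a single clone. Each library has a table of 631 tRNA rows, and each FLAG-PUS7 library also has a peak list, with 1605 and 199 peaks of the 2048 in the series.

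PUS7 is a pseudouridine synthase, which isomerises uridine in tRNA, small nuclear RNA and mRNA and prefers a short uridine-containing sequence, UNUAA or UNUAG. Transfer RNAs carry amino acids to the ribosome, and many genes encode each of them, often as identical copies. In embryonic stem cells PUS7 is known for modifying short fragments from the 5′ ends of tRNAs, among them those of Ala, Cys and Val, which hold back protein synthesis. iCLIP records where a protein touched RNA, through a covalent bond made by UV light.

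The tables hold level codes in place of read counts, so only detection of a row can be read from them, and the depth of each library is unknown. The first knockout table holds 6 distinct codes, which set the text width of each row. Its 0 detected rows follow from how the codes were read, and an empty library cannot be told apart from an unfilled table. Comparisons that use it are therefore given with and without it. Each replicate was made from its own 2 plates of 15 cm. The labels do not say whether the plates were grown up separately, so the spread between libraries may be partly technical. Stem cell identity was checked through the peak lists. Of 15 pluripotency genes found in the annotation, 5 (LIN28A, DPPA4, PODXL, DNMT3B and TERF1) had a peak in the first list and 0 in the second. POU5F1, NANOG and SOX2 were among those without a peak in either list. Of 13 markers of differentiated cells, 1 (COL1A1) had a peak in the first list, with a signal of 3. The peaks of the pluripotency genes were as weak, with a median signal of 3, the lowest in that list, and a highest of 5. Over all protein-coding genes, 4.31% had a peak in the first list and 0.239% in the second. A small RNA cluster that is typical of pluripotent cells, miR-302/367, was not among the listed genes. It had a peak in both lists and is described with its sequences further on.

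Nearly all rows with a RefSeq tRNA gene were detected with FLAG-PUS7 in H9 cells, 97.5% and 97.3%. The knockout libraries held 0% and 53.4% of them. With depth unknown, detection alone does not show binding by PUS7. The FLAG-PUS7 libraries detected 479 and 472 of the 631 rows, and the knockout libraries 0 and 232. Both FLAG-PUS7 libraries were higher than both knockout libraries. The mean difference was 359.5 rows, and 243.5 rows without the first knockout library (exact two-sided permutation p = 0.333 in both cases, the smallest p that 4 or 3 such libraries can give). With these numbers of libraries no difference within H9 can pass 0.05.

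The FLAG-PUS7 replicates found almost the same rows. They shared 456 rows, 23 were in the first alone, 16 in the second alone and 136 in neither. Among the 408 rows that matched a RefSeq tRNA gene, 391 were in both, 13 in 1 of them and 4 in none. The 4 genes missing from both were TRA-AGC10-1, TRC-GCA16-1, TRC-GCA19-1 and TRL-CAA5-1, which were named after their values were seen. The 49 rows of tRNA pseudogenes were mostly silent, with 9 detected in each FLAG-PUS7 library, 0 and 1 in the knockout libraries. Of 174 rows without a RefSeq match, 72 and 66 were detected with FLAG-PUS7, 0 and 13 in the knockout.

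Every row of the second knockout library was also in both FLAG-PUS7 libraries. This library detected 232 rows, and 0 of them were in only 1 FLAG-PUS7 library or in none. The remaining 224 rows that both FLAG-PUS7 libraries detected were in no knockout library, which is 35.5% of all rows. The count is the same (35.5%) without the first knockout library, which was read as 0 in every row and cannot change it. Without the second knockout library the count would be 456, so that this single library sets it. Of the 224 rows, 157 were also in none of the 3 knockout libraries of 293T, a kidney cell line processed in the same way, and 67 were in at least 1 of them. The mock background of the 2 lines overlapped. Of the 232 rows of the second H9 knockout library, 198 were in a 293T knockout library. This is 85.3% of the H9 rows and 74.2% of the 267 rows of the 293T knockouts. Over all rows, 42.3% were in at least 1 293T knockout library and 36.8% in the second H9 knockout library.

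**Figure D1:**
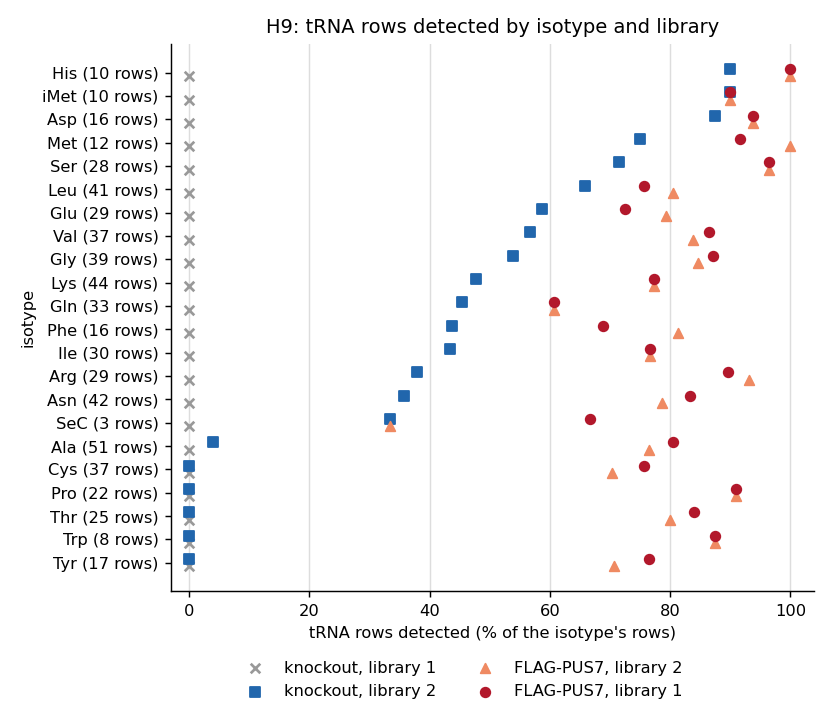
Share of the tRNA rows of each isotype that was detected (x axis, percent of the isotype's rows) in each of the 4 H9 libraries, with isotypes ordered by their share in the second knockout library. Points are single libraries, moved slightly up or down to stay visible. FLAG-PUS7 points lie far to the right for nearly every isotype, while the second knockout library runs from 0% for Cys, Pro, Thr, Trp and Tyr to 90% for His and initiator Met.

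The isotypes differed in how much of them the mock pull-down held. Cys, Pro, Thr, Trp and Tyr had no row in either knockout library, a group named after its values were seen. For Cys, with 37 rows, the FLAG-PUS7 libraries detected 28 and 26 rows. Pro had 20 of 22 rows in each FLAG-PUS7 library, and Thr 21 and 20 of 25. Trp had 7 of 8 rows in each, and Tyr 13 and 12 of 17. Ala came next, with 41 and 39 of 51 rows with FLAG-PUS7 and 2 in the second knockout library. At the other end the second knockout library held 14 of 16 Asp rows, where each FLAG-PUS7 library held 15. His, whose GTG family has 10 rows, was complete with FLAG-PUS7 and had 9 rows in the second knockout library. Initiator Met, the tRNA that starts every protein, had 9 of 10 rows in each FLAG-PUS7 library and in the second knockout library, so that these libraries did not differ. The plot of detected rows by isotype shows that FLAG-PUS7 and mock values overlap for initiator Met and SeC.

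The fixed isotype groups followed the same order. Ala, Cys and Val, the source of the fragments named above, have 125 rows, of which 101 and 96 were detected with FLAG-PUS7, 0 and 23 in the knockout. The 23 were 21 of the 37 Val rows and the 2 Ala rows, with 0 from Cys. In this single library Val stood apart from Ala and Cys, and whether the 3 isotypes differ was not tested. Of the 47 Pro and Thr rows, 41 and 40 were detected with FLAG-PUS7 and 0 in either knockout library. The families whose genes hold introns (Leu-CAA, Ile-TAT, Arg-TCT and the Tyr families) had 28 and 29 of 36 rows with FLAG-PUS7 and 4 in the second knockout library, all 4 from Leu-CAA. Tyr precursors are known PUS7 targets in yeast. Asn and Lys had 69 and 67 of 86 rows with FLAG-PUS7 and 36 in the second knockout library. For Asp, Glu, Gln, Gly and His the counts were 100 and 101 of 127 rows against 76. For Ser, Leu and SeC, which have a long variable arm, they were 60 and 61 of 72 rows against 48. Rows with an nm or nmt prefix in their name were rare throughout, with 6 and 2 of 41 detected with FLAG-PUS7. Of 12 undetermined or suppressor rows, each FLAG-PUS7 library detected 2.

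How often a row was detected also went with its text width, the number of characters its values took in the original table, which was inferred from the first knockout table. The second knockout library detected 1 of 248 rows of the narrowest class, 43 of 130 of the next, 111 of 166 of the third and 76 of 86 of the fourth. Within the classes, rows of Ala and of the 5 isotypes without a mock row were set beside the others. This is a description, since the 5 isotypes were chosen for having no row in the second knockout library. Only Ala rows of this group could be found there, so that the split in that library is built in. In the narrowest class the second knockout library held almost none of either, 0 of 38 rows that both FLAG-PUS7 libraries detected against 1 of 36. In the next narrowest class, 0 of their 50 rows that both FLAG-PUS7 libraries detected were in the second knockout library, against 43 of 77 rows of the other isotypes. In the third class the counts were 2 of 28 against 109 of 138, and in the fourth 0 of 4 against 76 of 82. The same split in the first 293T knockout library gave 14 of 28 against 107 of 138 in the third class. Copies of a gene that share a name up to the copy number may share reads, so that their rows are not independent. Each copy still counts as a row here, and copies were merged only in an alternative given further on. Of 59 such sets, 56 and 55 were detected in full with FLAG-PUS7, and the second knockout library held 34 in full, 22 not at all and 3 in part.

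**Figure D2:**
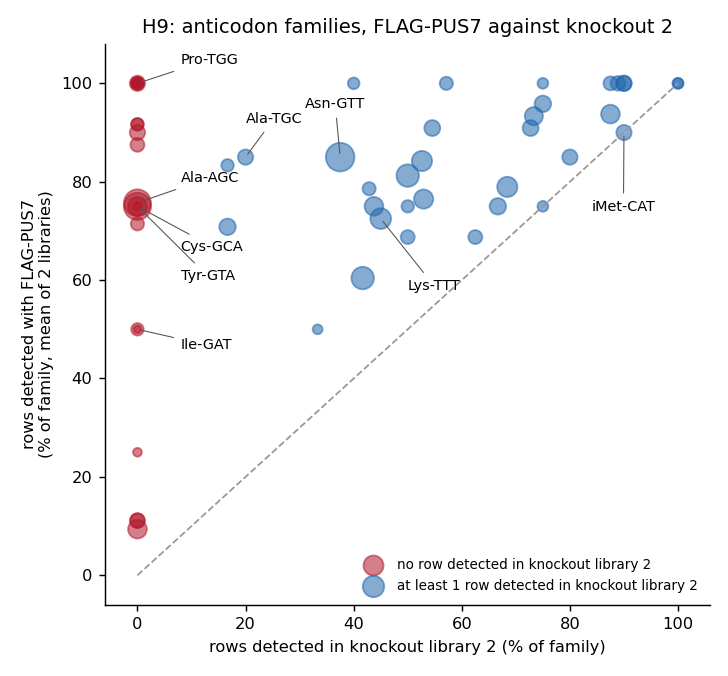
Anticodon families of H9, with the share of rows detected in the second knockout library on the x axis and the mean share over both FLAG-PUS7 libraries on the y axis, both in percent of the family's rows. Point area grows with the number of rows, and the dashed line marks equal shares. The column of families at 0% on the x axis holds Pro-TGG, Cys-GCA, Ala-AGC and Tyr-GTA. No family can lie below the line, since both FLAG-PUS7 libraries held every row of the second knockout library.

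The rows form 76 families by isotype and anticodon, and 57 of these had a detected row in H9. In 47 of the 57 families (82.5%) each FLAG-PUS7 library detected a larger share than each knockout library. The count is the same (82.5%) without the first knockout library, which was read as 0 in every row and cannot change it. Tested within H9 alone, 0 of 57 families (0%) passed (exact permutation test, lowest adjusted p = 0.404, and 0 at an unadjusted p under 0.05). With the 293T libraries as a further stratum, 45 families (78.9%) were higher and 0 lower, and 43 of the 45 remained without the first H9 knockout library (exact permutation test with Benjamini-Hochberg adjustment, adjusted p from 0.0221 to 0.0422 for the 45). The exact permutation test over both lines can give no p below 0.0167, and the 45 include the families of 1 row Ser-ACT and Sup-TTA. The difference in effect between H9 and 293T was tested over 100 assignments of the line labels within genotype, too few to show that the lines agree. It passed for 0 of 57 families, and for 0 at an unadjusted exact permutation p under 0.05. Both counts were also 0 without the first H9 knockout library.

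The 10 families of at least 3 rows with the largest difference from the second knockout library all had 0 rows in both knockout libraries. Ala-CGC and Ile-TAT had all 5 rows in each FLAG-PUS7 library, Pro-CGG all 4, Pro-TGG all 7 and Thr-AGT all 10. Arg-TCT had 5 and 6 of its 6 rows, and Thr-TGT 6 and 5 of 6. Pro-AGG had 9 of 10 in each, Trp-CCA 7 of 8 in each, and Ala-AGC 27 and 26 of 35. The third large Ala family, Ala-TGC, had 9 and 8 of 10 rows with FLAG-PUS7 and 2 in the second knockout library, and whether the Ala families differ was not tested. In all, 23 of the 57 families had 0 rows in that library, and 8 families were complete in both FLAG-PUS7 libraries and absent from it. At the opposite end Arg-CCG and Ser-TGA, with 4 rows each, were complete in all libraries but the first knockout. Together with Leu-TAG and initiator Met they are the 4 families with equal shares in both FLAG-PUS7 libraries and the second knockout library.

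**Figure D3:**
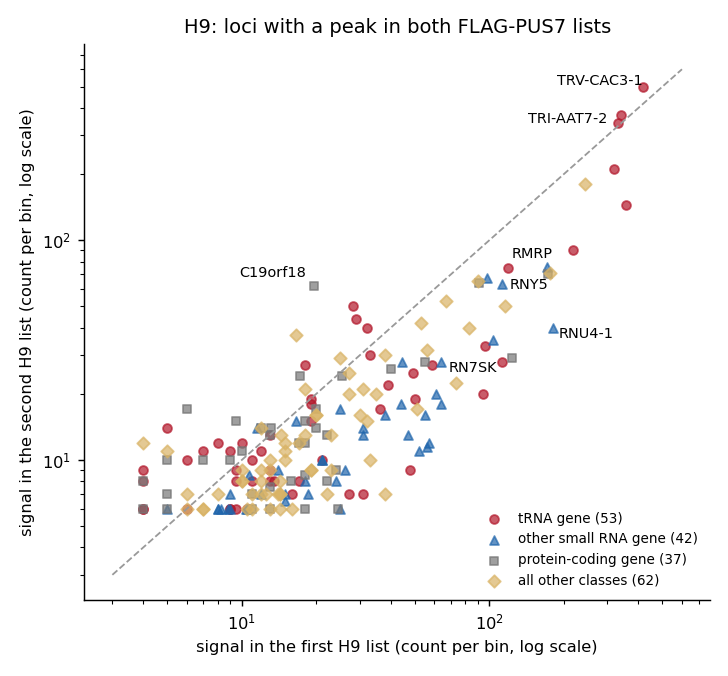
Signal of the 194 peaks of the second H9 list that overlap a peak of the first, with the signal in the first list on the x axis and that in the second on the y axis, both as count per bin on log scales. Symbols give the class of gene at the locus, and the dashed line marks equal signal. Most loci lie below the line, and the strongest tRNA loci, TRV-CAC3-1 and TRI-AAT7-2, lie above it.

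The peak lists add the position and the signal, a count per bin of 200 bases. Whether they hold reads that the tRNA tables also count is not stated. The names of the lists carry a mark that can be read as without tRNA, although peaks at tRNA genes are present. The lists differ in size and floor: the lowest signal is 3 in the first, where 56.2% of peaks have it, and 6 in the second. Of the 199 peaks of the second list, 194 (97.5%) overlapped a peak of the first on the same strand. These made up 11.8% of the first list, or 190 peaks. The share of the first list that overlapped grew with signal, from 36.7% of peaks with at least 5 to 86.5% with at least 20 and all 38 with at least 50. Signal was higher in the first list at 149 of the 194 loci and equal at 5, with a median ratio of first to second of 1.5. This ratio was 1.27 at tRNA genes and 2.18 at other small RNA genes. No scaling for depth is stated, and the lists are set side by side without a test.

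Of the first list, 57.9% of peaks lay in protein-coding genes (exact 95% binomial interval 55.4 to 60.3), 192 of 1605 peaks (10.4% to 13.7%) at small RNA genes other than tRNA and 7.1% (5.89 to 8.47) at tRNA genes. In the second list tRNA genes led with 27.6% (21.5 to 34.4), followed by other small RNA genes with 21.1% (15.7 to 27.4) and protein-coding genes with 19.1% (13.9 to 25.3). The intervals cover counting error only. Among peaks of the first list with a signal of at least 10 the tRNA share was 20.1%.

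The 12 loci with the highest mean signal were led by tRNA genes. TRV-CAC3-1, a valine tRNA gene on chromosome 19 (4724401 to 4724800, minus strand), had 416 in the first list and 500.5 in the second. The isoleucine genes TRI-AAT7-2 and TRI-AAT7-1 on chromosome 6 had 340 and 372, and 332 and 342. The leucine gene TRL-CAG2-1 on chromosome 16 had 320 and 212, and the glycine genes TRG-CCC2-2 and TRG-CCC2-1 had 358 and 145, and 218.5 and 90.5. TRE-CTC9-1, which RefSeq lists as a pseudogene, had 244 and 180 (chromosome 2, 150362801 to 150363000, plus strand). TRL-TAA4-1 on chromosome 6 had 119 and 75. Not all of these peaks held the whole gene. The fraction of the gene inside the peak was 0.122 for TRI-AAT7-1, 0.398 for TRL-CAG2-1, 0.554 for TRL-TAA4-1 and 0.915 for TRG-CCC2-2. The peaks of TRV-CAC3-1, TRI-AAT7-2 and TRG-CCC2-1 held it in full. The 4 other loci were RMRP, the RNA of the nuclease RNase MRP, with 170.5 and 75.5, the spliceosomal RNU4-1 with 180 and 40, the long noncoding LOC107986560 with 175 and 71, which holds the 5S pseudogene RNA5SP202, and the MYOCOS locus with 173 and 70.

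Some tRNA copies had a peak in 1 list only. TRN-GTT6-1 on chromosome 1 (143735801 to 143736000, minus strand) had 264 in the second list and no peak in the first. TRI-AAT5-3 on chromosome 6 had 70 in the second list alone, and TRN-GTT3-1 had 28 in the first alone. The signals of the asparagine GTT genes summed to 271 over 12 peaks in the first list and 449 over 9 in the second, and without TRN-GTT6-1 the sum in the second list was 185. The sources used here do not say how reads that match several copies were placed. The 2 highest peaks that only the first list had lay outside tRNA genes. In that list an unannotated bin on chromosome 15 (81782201 to 81782400, minus strand) had 47, RGL3 32, the variant U1 gene RNVU1-7 25 and RBM43 23. Beyond the tRNA genes the highest peaks of the second list alone were weak: RNA18SP had 7, GNPTAB 6 and RNU1-89P 6.

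The strongest tRNA peaks lay at genes that the second knockout table also held. Of the 107 tRNA peaks of the first list with a row in the tables, 73 (68.2%) had a row detected in the second knockout library, and they carried 90.2% of the signal of these peaks. In the second list 39 of 53 (73.6%) carried 94.2%. By comparison, the second knockout library detected 53.4% of all rows with a RefSeq tRNA gene. Peaks at genes without a mock row reached at most 50 in the first list and 19 in the second, against 416 and 500.5. All 107 and 53 peaks had a row that the same FLAG-PUS7 library detected. The isotypes absent from the mock tables had few peaks: Cys had 1 (TRC-GCA11-1, signal 9) and Tyr 1 (TRY-GTA5-1, signal 3) in the first list, and 0 in the second, and Trp had 0 in both. Pro had 3 peaks and 1 peak, with a highest signal of 11. Thr was the exception in number, with 11 and 5 peaks and a highest signal of 48 at TRT-CGT4-1, where the second list had 9. Ala had 5 and 2 peaks, with a highest signal of 16 at TRA-AGC8-2. Few peaks were not particular to these isotypes. Asp and initiator Met, whose rows the second knockout library mostly held, had no tRNA peak in either list. Phe, with 7 of 16 rows in that library, had 1 peak in the first list, with a signal of 9.

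Peaks also lay just beside tRNA genes. Of the peaks that touch no tRNA gene, 25 in the first list and 14 in the second lay within 200 bases of 1. The strongest was 44 bases from TRL-AAG1-3 on chromosome 5 (181173801 to 181174000, minus strand), with a signal of 67 and 53. Bins 3, 6 and 13 bases from the histidine genes TRH-GTG1-5, TRH-GTG1-7 and TRH-GTG1-8 had 38 and 30, 55 and 28, and 40 and 26. The latter pair lie inside SHF, so that a protein-coding gene is counted there. Of the tRNA peaks, 63 of 114 and 28 of 55 held a whole tRNA gene.

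**Figure D4:**
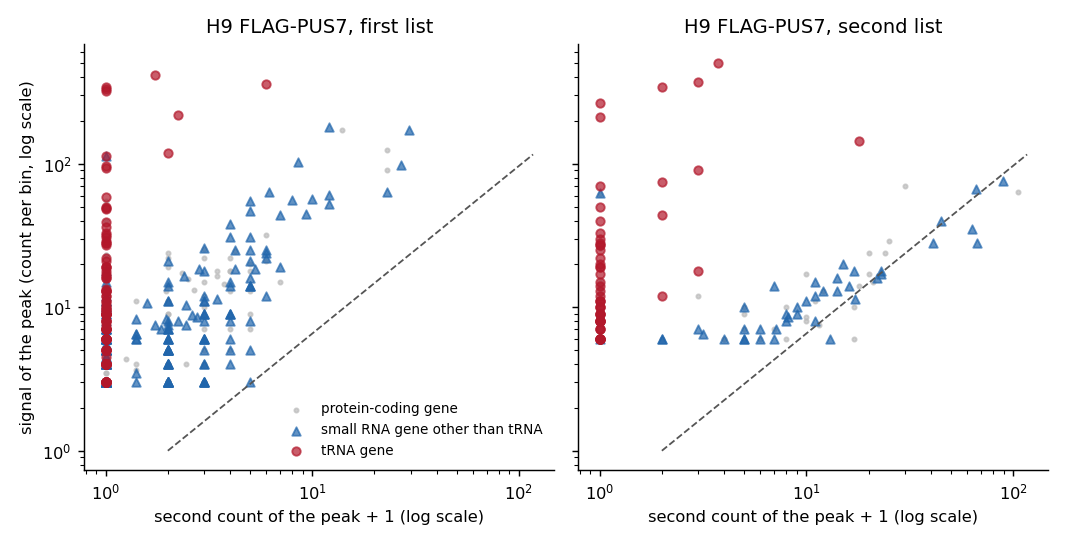
Signal of each peak (y axis, count per bin) against the second count that the lists give for it, plus 1 (x axis), on log scales, with 1 panel for each H9 list. Colours give the class of gene, and the dashed line marks a second count equal to the signal. In the second list the small RNA peaks gather at the line, with 14 of 42 at or past it, while all tRNA peaks lie above it.

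The lists give each peak another count, whose source is not stated, and it was more often 0 at tRNA genes than at the other small RNAs. At tRNA peaks this second count was 0 for 110 of 114 peaks in the first list and 46 of 55 in the second, and it reached the signal at 0 of them in either list. At other small RNA genes it was 0 for 73 of 192 and 2 of 42. A value of 0 was not particular to tRNA: protein-coding genes had it at 88.7% of peaks in the first list and 26.3% in the second. Among tRNA peaks with a row in the second knockout library, the second count was above 0 at 4 of 73 and 7 of 39. Without such a row it was above 0 at 0 of 34 and 2 of 14. It was at least as high as the signal at 0.125% of all peaks in the first list and 21.1% in the second, and at 14 of the 42 small RNA peaks of the second list. TRI-AAT7-2 had second counts of 0 and 2 beside signals of 340 and 372, and TRG-CCC2-2 had 5 and 17 beside 358 and 145. RMRP had 28.2 and 88.7 beside 170.5 and 75.5. RN7SK, the RNA that holds the elongation factor P-TEFb inactive, had 5.16 and 66 beside 64 and 28. Among spliceosomal RNAs, RNU4-1 had 11 and 44 beside 180 and 40, and RNU2-2 had 26 and 65 beside 98 and 67. SNORD3A, a copy of the U3 RNA of ribosome assembly, had 8.33 and 40 beside 44.5 and 28. So RMRP, RN7SK, RNU4-1 and SNORD3A had more second count than signal in the second list and less in the first. The Y RNAs of the Ro particle split: RNY5 had second counts of 0 in both lists beside 113 and 63, while RNY1 had 7.49 and 62 beside 103 and 35. The vault RNAs, parts of the vault particle, stayed below the signal, with 3 and 13 beside 38 and 16 at VTRNA1-1 and 0 and 2.16 beside 15 and 6.5 at VTRNA1-3.

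All 42 small RNA peaks of the second list had a partner in the first. Of these, 13 were spliceosomal or other small nuclear RNAs, with signals from 6 to 67 in the second list. They include RNU4-1 and RNU2-2 above, RNU6ATAC (61 and 20), RNU5A-1 (57 and 12), RNU4-2 (56 and 11.5) and RNU12 (55 and 16). Box C/D snoRNAs, most but not all of them guides for ribose methylation, gave 12 peaks in the second list, of 78 in the first. They were led by SNORD118 (44 and 18) and SNORD97 (47 and 13). Box H/ACA snoRNAs, most but not all of them guides for pseudouridine made by another enzyme, gave 40 peaks in the first list. The second list had 1, SNORA73A, with 18.5 and 7. RN7SL1 and RN7SL2, the RNAs of the signal recognition particle, had 10.7 and 8.5, and 11.5 and 14. SCARNA2 had 25 and 17.

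Within the mitochondrial genome, the longest peak of the second list (bases 601 to 3200, plus strand) covered both ribosomal RNAs and their neighbouring tRNAs, with a signal of 22.4 and a second count of 28.1. In the first list the matching peak (601 to 3400) had 73.6 and 14.0.

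The miR-302/367 cluster, known from pluripotent cells, had a peak in both lists. The first list had a peak of 8.8 on chromosome 4 (112647601 to 112648600, minus strand), which covers all 5 hairpins of the miR-302/367 cluster and lies on their strand. The second list had a peak of 6 (112648001 to 112648200), which covers MIR302D and 18 of the 69 bases of MIR302A. The second counts were 1.61 and 3, and no 293T list had a peak here. These miRNAs are known to sustain the pluripotent cell cycle, and those of the miR-302 arm below share a seed, bases 2 to 8, shown in capitals, as RefSeq gives them for GRCh38. The sequences are shown as those of a small RNA known from stem cells. The cluster was not among the pluripotency genes listed for the check of cell identity. Its signal of 6 in the second list is the lowest of that list.
hsa-miR-302a-3p: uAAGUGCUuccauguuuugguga
hsa-miR-302b-3p: uAAGUGCUuccauguuuuaguag
hsa-miR-302c-3p: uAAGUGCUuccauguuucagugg
hsa-miR-302d-3p: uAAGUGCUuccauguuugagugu
hsa-miR-367-3p: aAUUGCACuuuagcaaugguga
The preferred PUS7 letters, UNUAA or UNUAG, were searched in the hairpins on the transcribed strand, with overlapping matches counted. They occur in 589 of 1560 RefSeq hairpins (37.8%), in MIR302D and MIR302C at base 8, in MIR302B 3 times, in MIR367 2 times and not in MIR302A. A match is a description of the letters and not a modified site. The other miRNA gene with a peak in both lists, MIR12136, lies on the opposite strand from its peak, inside a nuclear copy of mitochondrial DNA.

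The peaks in protein-coding genes were many and weak in the first list and few in the second. Leaving out peaks that also touch a tRNA or other small RNA gene, the first list had 929 peaks in 795 genes, 73.2% of them at the lowest signal of 3, and 51 with at least 10. The second had 38 in 33 genes. Where a peak lay in 1 gene of known strand, it ran with the transcript in 678 of 745 cases in the first list (91.0%, exact 95% interval 88.7 to 93.0) and in 22 of 29 in the second (75.9%, 56.5 to 89.7). PTPRG, a receptor phosphatase, had most peaks, 6, followed by PHC1, a polycomb protein, PTPRZ1 and SEMA6A with 5 each. Of 86 ribosomal protein genes, 39 (45.3%) had a peak in the first list and 4 in the second, against 4.31% and 0.239% of all protein-coding genes. Of their 62 peaks in the first list, 34 also held a snoRNA gene, which lies in an intron of the host. All 4 in the second list held another small RNA gene: SNORD34 in RPL13A, SNORD101 in RPS12, SNORD15B in RPS3, and RN7SL1 beside RPS29, on the strand opposite to it. Of 70 translation factor genes 11 had a peak in the first list and 1 in the second, EIF4G2, whose peak of 47 and 13 holds SNORD97. HNRNP genes had 8 of 26 and 0, and histone genes 12 of 94 and 0. The level of each transcript was not measured, so that its part in these counts was not tested.

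Many of the protein-coding loci found in both lists held another element. Of the 38 peaks of the second list, 18 overlapped a pseudogene, several of them copies of U2 RNA. ERO1B had 91 and 64 with second counts of 22 and 105 and holds RNU2-70P, and PCDH11X (20 and 17) and BTRC (22 and 13) hold RNU2-26P and RNU2-59P. KIAA0825 had 124 and 29 and holds copies of mitochondrial genes, and LOC102724250 (25.5 and 24) ran in the same stretch of chromosome 1 as the nuclear copy above. ANKRD30BL, where the bin also holds the pseudogenes LOC107985804 and LOC110467533, had 17.2 and 24 at the locus found in both lists. MYOCOS had 173 and 70, on the strand opposite to the gene. SHF was described with the histidine tRNA genes. C19orf18 (chromosome 19, 57960801 to 57961000, plus strand) went against the general order with 19.5 and 62 and second counts of 0, also opposite to its gene. SAFB2, a nuclear matrix protein, had 20 and 14 with second counts of 0, on the gene's strand and without another RefSeq gene in the bin. CPA6 had 24 and 9. The last of the 12 genes the rule names is a near-identical copy of PCDH11X and is not described.

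Of the 194 loci in both H9 lists, 111 had no peak in any 293T list and 32 had a peak in all 3. At tRNA genes these absent loci were 15 of 53, against 96 of the 141 other loci. TRI-AAT7-2 and TRN-GTT7-1 (96 and 33) were among the 15. The TRI-AAT7-2 row was still detected in each FLAG-PUS7 library of 293T. TRI-AAT7-1, a copy by name, had peaks of 10 and 23 in 2 of the 293T lists. The 293T lists are shorter, so that absence from them is not a measured difference.

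**Figure D5:**
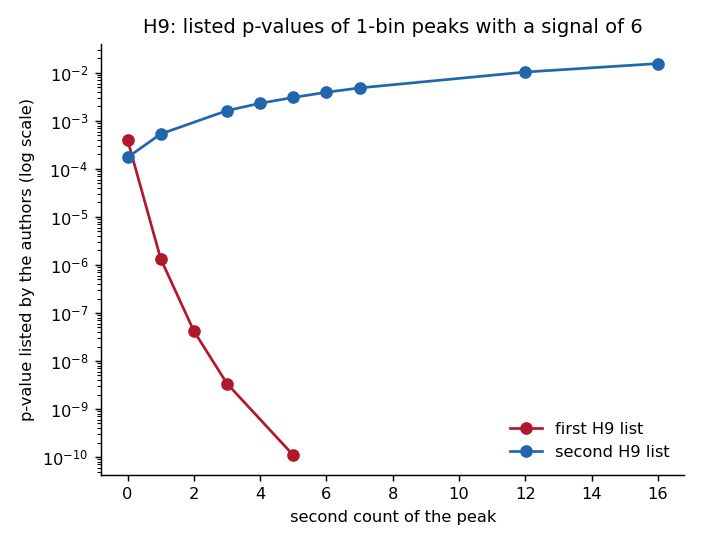
The p-value that the authors list for 1-bin peaks with a signal of 6 (y axis, log scale) against the second count of the peak (x axis) in both H9 lists. Each point is the p shared by all such peaks. The red line falls from 0.000405 to 1.09e-10 in the first list, and the blue line climbs from 0.000173 to 0.0156 in the second.

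The authors' listed p-values moved with the second count in opposite directions in the first and second list. In the first list 1-bin peaks with a signal of 3 are listed at 0.0301 for a second count of 0, at 0.00379 for 1 and at 0.000782 for 2. In the second list those with a signal of 8 are listed at 3.02e-06 for a second count of 0 and at 0.00157 for 17. Peaks of 1 bin with a signal of 3 and no second count made up 831 of the 1605 peaks of the first list. The shared loci are described here by signal and not by the listed p.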

How the data were processed

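Members and lists were chosen with earlier results of these data known. Per the labels' protocols, cells were irradiated at 254 nm with 200 mJ/cm2, sonicated lysates were treated with RNase I, and anti-FLAG beads were then incubated with them for 2 h at 4 °C. Bowtie, SAMtools, bedtools and hg38 come from the submitters' processing notes, without versions. The sources used here do not name the peak caller. The values the authors deposited in the tRNA tables are level codes, the alphabetical rank of a text. The lowest run of codes was read as not detected and any higher code as detected. In the deposited peak lists the authors give a signal, a p-value and the natural log of another count per bin. This count was taken as the exponential minus 1 and rounded to 2 decimals; without the subtraction each would be 1 higher. Peaks of several bins carry averages.

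Rows were matched by name to RefSeq (GRCh38.p14): 408 rows are tRNA genes there, 49 pseudogenes and 174 unmatched. A peak was given the first class it touched by 1 base, in the order tRNA, other small RNA, protein-coding, long noncoding RNA and pseudogene; the mitochondrial genome was kept apart. Exact permutation tests over libraries were adjusted by the Benjamini-Hochberg method over all families. Scripts used Python 3.11.15, NumPy 2.4.6, pandas 2.3.3 and SciPy 1.17.1 and were tested on simulated data. Named were the 10 families of at least 3 rows with the largest difference from the second knockout library, families complete in all other libraries, the isotype groups, the 12 loci and 12 protein-coding genes with the highest mean signal in both lists, the 5 highest peaks only 1 list has, and small RNA loci in both. Motifs in tRNA sequence were not analysed here.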

Additional observations from a re-analysis of the deposited data

How the results depend on the processing

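With the H9 libraries alone no alternative could bring a test past 0.05. The difference in detected rows ranged from 243.5 to 475.5 when 1 library was left out. It was 288.5 of 408 rows with RefSeq tRNA genes alone, 256 of 465 with copies merged, 356 with the most frequent code read as no reads and 355 with the next run of codes also counted as not detected, an alternative chosen after seeing the data. The count of rows in both FLAG-PUS7 libraries and no knockout library ranged from 224 to 456 when 1 library was left out, and the highest value, without the second knockout library, follows from having fewer detected mock rows. The count of families without overlap ranged from 47 to 54 when 1 library was left out. The adjusted test within H9 called 0 families in each such fit and 45 with 293T as a further stratum, where more libraries allow a smaller p. With the replicate number as a block, the difference in rows was 359.5 and 0 families passed, since 2 pairs allow no p below 0.5. The deviations of same-numbered libraries correlated at r = 0.03 over 631 rows. The first knockout library was read as 0 in every row, so this value cannot show whether same-numbered libraries were paired. Every row of the second knockout library was in both FLAG-PUS7 libraries, and the first was read as 0. So no family's difference could turn negative with a library left out, copies merged or RefSeq genes alone, and none did. It fell to 0 for 4 families without the first knockout library (Arg-CCG, Leu-TAG, Ser-TGA and initiator Met), for 2 without the first FLAG-PUS7 library (Tyr-ATA and nm-Tyr-GTA) and for 1 without the second (Glu-GAA). The difference between H9 and 293T passed for 0 families with and without the first H9 knockout library, a fit added after seeing the data. With copies merged 6 of 57 families moved beyond the spread of the libraries, and with RefSeq genes alone 9 of 49.

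Raising the signal to at least 10 left 100 peaks of the first list and 101 of the second that overlap the other list, which are 44.6% and 87.8% of what remained. The tRNA share of the first list was 16.4% among peaks with a listed p under 0.001, 20.1% among those with a signal of at least 10 and 5.55% where at least 50% of the gene had to lie inside the peak; the cause was not tested. In the second list the tRNA share stayed between 21.6% and 31.2% under the same alternatives. Other overlap rules left the shared loci within 1 peak of 190 and 194. Depth is unknown, so that a row not detected may only have been too rare.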
